A study of Salmo trutta with 24 samples.

Results

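The enzymes of methionine and cysteine metabolism were followed in the livers of 24 male brown trout (*Salmo trutta*). Members were the assembled transcripts (contigs) whose first annotation hit, taken in the order zebrafish, human or mouse, and other fish, named betaine-homocysteine methyltransferase, cysteine dioxygenase, methionine adenosyltransferase, adenosylhomocysteinase, a cystathionine enzyme, glycine N-methyltransferase or cysteine sulfinic acid decarboxylase. This gave 39 of the 66359 transcripts and 12 of the 11584 annotated genes. The term adenosylhomocysteinase matched 0 transcripts, because the gene is listed under the name S-adenosylhomocysteine hydrolase, and it is given below as a neighbour and not as a member.

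Methionine is activated to S-adenosylmethionine, the methyl donor of most methylation reactions, by the methionine adenosyltransferases. After the methyl group has been passed on, homocysteine remains. It is either methylated back to methionine, with betaine or methylfolate as the donor, or condensed with serine and cleaved to cysteine in the transsulfuration pathway. Cysteine is then used for protein and glutathione or oxidised towards taurine. In vertebrates the liver is the main site of much of this metabolism.

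Groups of 3 adult males each had been exposed through the water to 17β-estradiol (E2), the principal estrogen of vertebrates, at 1.9, 18.1 or 34.4 ng E2/l, or to linuron, a phenylurea herbicide, at 1.7, 15.3 or 225.9 µg linuron/l, and 6 control fish received neither chemical. The labels are at odds on the length of exposure, with 4 days in one field and 14 days in another, and the methods of the E2 experiment have 4 days. According to the methods of the E2 experiment, a concentration had a single tank and the controls had duplicate tanks. The effect of a tank and of its concentration therefore cannot be told apart, and the labels do not place single control fish in a tank. All 6 comparisons use the same 6 control fish, so they are not independent of each other. The fish of a group are separate animals, but where a group shared a tank the p-values measure only the spread between fish.

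Between 5748309 and 10736246 reads were counted per exposed fish (18 fish) and between 3894392 and 8635566 per control fish (6 fish). Values are listed by fish number within each group. Levels are given as CPM, the reads of a contig scaled to a common library size, on TMM-scaled libraries (trimmed mean of M values), on one scale for all 24 fish. The value of a gene is the sum of its contigs. Contig lengths were not used, so levels are compared between fish and not between genes. All 9 hepatocyte marker genes sought (among them transferrin, fibrinogens and apolipoproteins) were detected in every group. The testis marker matched, synaptonemal complex protein 1, was not listed in the tables of 34.4 and 1.9 ng E2/l and 225.9 µg linuron/l. Its level in those exposed fish is therefore not known. Elsewhere this marker reached 11.1 CPM at 18.1 ng E2/l, 9.52 CPM at 1.7 µg linuron/l, 5.53 CPM at 15.3 µg linuron/l and 2.40 CPM in controls. Its part in the results was not tested. No annotation matched the skeletal muscle markers.

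The 39 transcripts belonged to 11 enzymes and 18 components of the assembly, a component being a set of contigs that the assembler placed together. Cysteine dioxygenase carried 2 annotations, a human hit (*CDO1*, 1 contig) and a mouse hit (*Cdo1*, 4 contigs), all in 1 component, so these count as one enzyme and their values are not independent. In 5 components, contigs of other annotations stood beside the members: DEAD box polypeptide 46 beside *cdo1*, NHP2 beside *cbsa* and 2 contigs of *cbsb*, a mediator subunit beside 2 other contigs of *cbsb*, an uncharacterised protein beside all 3 contigs of *gnmt*, and several proteins beside *mat2al*. The single contig of *cbsa* thus shares its component with *cbsb*, and the values of these genes are not independent. The division of reads between such contigs is uncertain.

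At 34.4 ng E2/l, 5 of the 12 genes fell and 1 rose against the controls. The genes that fell were *bhmt*, *gnmt*, *cbsa* and both annotations of *cdo1*, which cover the betaine-dependent return of homocysteine to methionine, the glycine-dependent consumption of S-adenosylmethionine, the entry into transsulfuration and the oxidation of cysteine. The gene that rose was *mat2aa*, one of the genes that encode the catalytic subunit of S-adenosylmethionine synthesis. Over all annotated genes, 3.45% were called at 34.4 ng E2/l (1.95% higher and 1.49% lower), by edgeR's quasi-likelihood test with a Benjamini-Hochberg adjusted p under 0.05 over all genes tested. At the level of single transcripts, 12 of the 39 members were called, 1 higher and 11 lower. Of all transcripts 2.26% were called (1.47% higher and 0.791% lower). The lower members included the 4 contigs of *Cdo1* and the 1 contig of *CDO1*, which share 1 component and count as a single enzyme. The tallies over 12 genes and 39 transcripts are therefore not counts of independent members. The median log2 fold change was -1.18 over the 12 genes and -0.0049 over all genes. Over the 39 transcripts the median was -0.12 and over all transcripts 0.020. The members were chosen with earlier results of these data known, so these shares and medians describe the set and do not test it. None of the 8 contigs of *csad* or the 4 of *mat2al* was called.

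**Figure D1:**
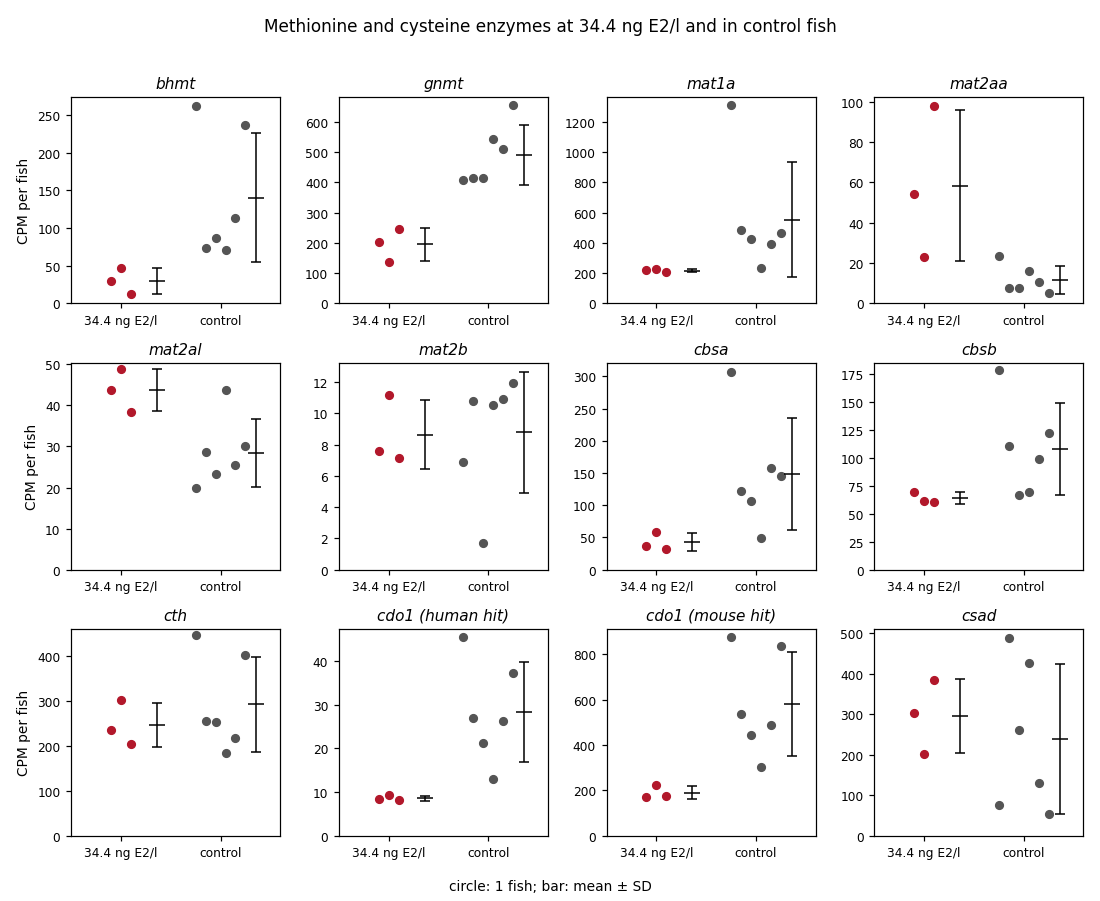
Level of each of the 12 genes in CPM (vertical axes, from 0) in the 3 fish kept at 34.4 ng E2/l (red) and the 6 control fish (grey). Circles are single fish, and bars give the mean and SD of the group. All exposed fish lie below all control fish for *bhmt*, *gnmt*, *mat1a* and both annotations of *cdo1*, while 2 of the 3 exposed fish lie above all controls for *mat2aa* and the groups overlap widely for *mat2b*, *cth* and *csad*.

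The lowest fold change was that of *bhmt* (ENSDARG00000013430), betaine-homocysteine methyltransferase, which returns homocysteine to methionine with betaine as the methyl donor. The 3 exposed fish had 30.1, 46.7 and 12.7 CPM, against 262, 73.1, 87.5, 71.1, 114 and 236 CPM in the 6 control fish. The highest exposed fish lay below the lowest control, although the controls themselves differed by 3.68 times between the highest and the lowest. Means were 29.8 ± 17.0 CPM at 34.4 ng E2/l (SD, n = 3) and 141 ± 85.8 CPM in controls (SD, n = 6). The log2 fold change was -2.36 (standard error 0.55, edgeR adjusted p = 0.0344), or 5.14-fold lower. Both contigs of *bhmt* were called, with log2 fold changes of -2.34 and -2.20. The call was lost without any single one of the exposed fish, where the adjusted p was 0.0624 to 0.173, and without control 5 or control 6, while the log2 fold change stayed between -2.86 and -1.99.

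The lowest adjusted p was that of *gnmt* (ENSDARG00000006840), glycine N-methyltransferase, an abundant liver enzyme that uses S-adenosylmethionine to methylate glycine to sarcosine. Exposed fish had 204, 138 and 246 CPM, against 408, 413, 416, 543, 510 and 657 CPM in controls. Every exposed fish was below every control, and the controls spanned only 1.61 times. Mean levels were 196 ± 54.6 CPM at 34.4 ng E2/l (SD, n = 3) and 491 ± 99.0 CPM in controls (SD, n = 6), a log2 fold change of -1.46 (standard error 0.24, edgeR adjusted p = 0.00613), or 2.75-fold lower. Of its 3 contigs, 2 were called and the remaining one had a log2 fold change of -1.11 with an edgeR adjusted p of 0.0520. The gene stayed called in 8 of the 9 fits that left out 1 fish. Without exposed fish 1 the adjusted p was 0.0548.

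S-adenosylmethionine synthesis is catalysed by the products of *mat1a* (ENSDARG00000039605), the form of the adult liver in mammals, and of the *mat2a* genes, the form of other tissues and of growing liver in mammals, with *mat2b* as a regulatory subunit. Among the 4 genes of this step, *mat2aa* rose and the others did not pass the test. The level of *mat2aa* (ENSDARG00000040334) was 54.4, 23.0 and 97.8 CPM in the 3 exposed fish, against 23.5, 7.52, 7.49, 16.1, 10.7 and 5.10 CPM in controls. The first and the third exposed fish stood above all controls, while the second fell just below the highest control. Exposed fish averaged 58.4 ± 37.6 CPM (SD, n = 3) and control fish 11.7 ± 6.90 CPM (SD, n = 6), at a log2 fold change of 2.17 (standard error 0.46, edgeR adjusted p = 0.0219), or 4.51-fold higher. Most of these reads came from 1 of its 3 contigs, which was called on its own at a log2 fold change of 2.43. Without exposed fish 3, which had the highest level, the log2 fold change was 1.59 and the adjusted p 0.179, and the call was also lost without exposed fish 1, control 2 or control 5.

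The liver form *mat1a* had 223, 225 and 205 CPM in the exposed fish, against 1308, 487, 428, 236, 393 and 463 CPM in controls. The exposed fish lay within 1.10 times of one another and all below the controls, whose range was 5.54 times. At a log2 fold change of -1.48 (standard error 0.45) and an edgeR adjusted p of 0.0923, *mat1a* was not called. Control 1, at 1308 CPM, stood far above the other controls. Without that fish the log2 fold change was -1.01 and the adjusted p 0.0298, a smaller difference that passed the test, and without control 4 the adjusted p was 0.0369.

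For *mat2al* (ENSDARG00000063665), a relative of *mat2aa*, the exposed fish had 43.8, 48.8 and 38.5 CPM, against 19.98 to 43.7 CPM in controls (median 27.0), and the log2 fold change was 0.49 (standard error 0.23, edgeR adjusted p = 0.296). The regulatory subunit *mat2b* (ENSDARG00000012932) had 7.58, 11.2 and 7.16 CPM in exposed fish, against 1.69 to 11.9 CPM in controls (median 10.7). Its log2 fold change of -0.17 (standard error 0.42) left a range from -1.01 to 0.66 within 2 standard errors.

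Transsulfuration begins with cystathionine beta-synthase, encoded by *cbsa* (ENSDARG00000053500) and *cbsb* (ENSDARG00000010946), and ends with cystathionine gamma-lyase, encoded by *cth* (ENSDARG00000074301). Of these 3 genes, *cbsa*, whose only contig shares a component with 2 contigs of *cbsb*, was called lower. It had 37.3, 58.0 and 31.3 CPM in exposed fish, against 307, 122, 106, 49.7, 158 and 146 CPM in controls. The second exposed fish was above control 4, so the groups overlapped by 1 fish on each side. Mean levels were 42.2 ± 14.0 CPM at 34.4 ng E2/l (SD, n = 3) and 148 ± 86.6 CPM in controls (SD, n = 6), and the log2 fold change was -1.94 (standard error 0.47, edgeR adjusted p = 0.0415), or 3.85-fold lower. The call held in 2 of the 9 fits that left out 1 fish, those without control 1 or control 4, and the adjusted p reached 0.207 without exposed fish 1.

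The second synthase gene, *cbsb*, had 69.7, 61.1 and 60.5 CPM in exposed fish, against 178, 110.2, 66.4, 69.3, 98.9 and 122 CPM in controls, and its log2 fold change was -0.89 (standard error 0.30, edgeR adjusted p = 0.127). Its 7 contigs did not move as one. The contig of component comp92707_c0 was called lower, at 19.0, 24.1 and 8.33 CPM in exposed fish, against 32.1 to 107 CPM in controls, and had a log2 fold change of -1.77 (edgeR adjusted p = 0.0363). The log2 fold changes of the other 6 ran from -1.20 to 1.21, and none was called. The called contig shares the assembly number comp92707 with the contig of *cbsa*, whose own log2 fold change was -1.85. At 1.9 ng E2/l the called contig had -1.21 and that of *cbsa* -1.13, and at 15.3 µg linuron/l 0.65 and 0.48. Whether both contigs carry the same signal was not tested.

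For *cth*, which releases cysteine from cystathionine, the exposed fish had 236, 302 and 205 CPM, against 448, 255, 253, 185, 218 and 402 CPM in controls. All exposed fish fell inside the range of the controls. The fitted log2 change was -0.38 and its range within 2 standard errors -0.95 to 0.20 (edgeR adjusted p = 0.564). Whether *cth* differed from *cbsa* in its change was not tested.

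Cysteine dioxygenase adds oxygen to cysteine and so controls hepatic cysteine in mammals. Its product, cysteine sulfinic acid, is decarboxylated by the enzyme of *csad* on the way to taurine. In exposed fish the 4 contigs of *Cdo1* (ENSMUSG00000033022) summed to 171, 223 and 173 CPM, against 876, 538, 446, 302, 489 and 837 CPM in controls. The highest exposed fish was below the lowest control, and exposed fish averaged 189 ± 29.1 CPM (SD, n = 3) and control fish 581 ± 227 CPM (SD, n = 6). The log2 fold change was -1.75 (standard error 0.33, edgeR adjusted p = 0.012), or 3.37-fold lower, and each of the 4 contigs was called, at log2 fold changes of -1.70 to -1.61. The contig with the human hit, *CDO1* (ENSG00000129596), had 8.53, 9.27 and 8.09 CPM in exposed fish, against 45.5, 27.0, 21.3, 13.1, 26.2 and 37.3 CPM in controls, and a log2 fold change of -1.85 (standard error 0.35, edgeR adjusted p = 0.0113). Both annotations stayed called without any single control fish. Without exposed fish 1, 2 or 3 the adjusted p was 0.0507 to 0.108 for *Cdo1* and 0.0601 to 0.0943 for *CDO1*.

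The enzyme of the next step was not called. In exposed fish *csad* (ENSDARG00000026348) had 304, 201 and 384 CPM, against 75.2, 489, 262, 428, 130.1 and 54.3 CPM in controls, a 9.003-fold range among the controls that took in all 3 exposed fish. The log2 fold change was 0.18 (standard error 0.58, edgeR adjusted p = 0.929), so changes between -0.98 and 1.33 lay within 2 standard errors. None of its 8 contigs was called, and all had log2 fold changes between 0.026 and 0.44. The difference between *csad* and *cdo1* was not itself tested.

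**Figure D2:**
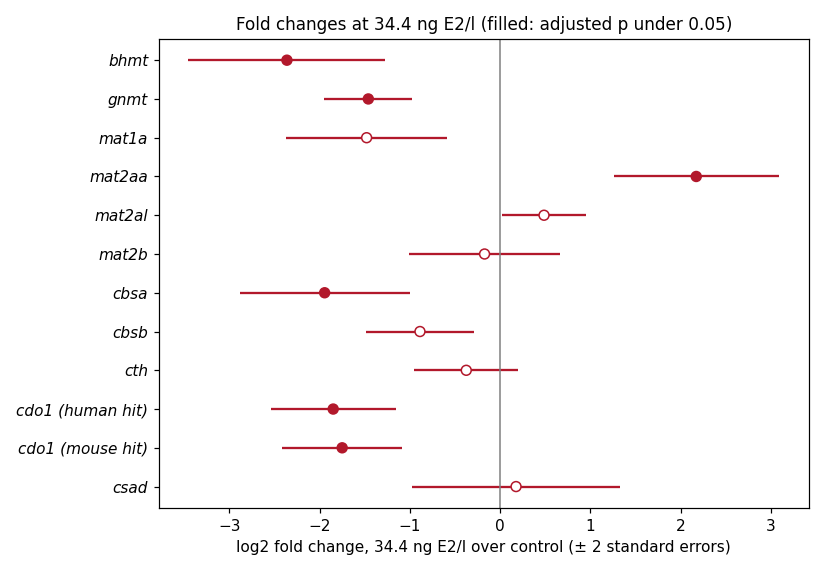
Log2 fold change of each gene in fish kept at 34.4 ng E2/l over control fish (horizontal axis), with lines of 2 standard errors to each side, in the order of the pathway from remethylation at the top to taurine synthesis at the bottom. Filled circles have an edgeR adjusted p under 0.05: *bhmt* (-2.36), *gnmt* (-1.46), *cbsa* (-1.94) and both annotations of *cdo1* (-1.85 and -1.75) to the left of 0, and *mat2aa* (2.17) to the right.

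On the scale of the 9 fish of this comparison, the 3 exposed fish lay all below the 6 controls for 6 of the 12 genes, where 5.17% of all genes did, and all above them for 0, where 6.44% of all genes did. These were *bhmt*, *gnmt*, *mat1a*, both annotations of *cdo1* and *cbsb*, the last of which overlapped the controls on the scale of all 24 fish. Leaving out 1 fish moved the number of called genes between 0 (without exposed fish 1) and 7 (without control 1 or control 4). It was 2 without exposed fish 2, 1 without exposed fish 3, and 3 without control 5. The number of called transcripts was 0 without exposed fish 1, and 3 and 2 without the second and the third. The numbers called over the whole table in these fits are not given here. A loss of calls among the members and one across the whole table therefore cannot be told apart.

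Summed markers of erythrocytes, leukocytes, exocrine pancreas and endothelium overlapped the controls at 34.4 ng E2/l, and those of hepatocytes did not. The summed level of the hepatocyte markers was 64590 to 75160 CPM at 34.4 ng E2/l, against 83100 to 122000 CPM in controls, so that the groups did not overlap. Of the 9 markers, 8 had a log2 fold change below 0 and 2 fell: the fibrinogen gamma chain (-1.004, edgeR adjusted p = 0.0465) and apolipoprotein Bb (-1.13, edgeR adjusted p = 0.0219). No marker of erythrocytes (2 tested), leukocytes (4), exocrine pancreas (5) or endothelium (3) was called. A log2 fold change below 0 was found for 1 of the 2 erythrocyte markers, all 4 leukocyte markers, all 5 pancreas markers and all 3 endothelium markers, and summed leukocyte markers were at 224 to 266 CPM, against 187 to 548 CPM. Their part in the results was not tested. The hepatocyte marker apolipoprotein B had a log2 fold change above 0, at 0.64 (edgeR adjusted p = 0.192). In whole liver pieces, fewer cells of a type, less RNA per cell and a change of the marker genes themselves cannot be told apart.

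At the lower concentrations of E2, no member was called. All 12 genes had an edgeR adjusted p of 0.910 to 0.994 at 1.9 ng E2/l and of 0.999 at 18.1 ng E2/l, and 0% of all genes were called in either comparison. At an unadjusted p under 0.05 there were 2 of 12 genes at 1.9 ng E2/l (5.28% of all genes, 2.83% lower), *cbsa* and *CDO1*, both lower, and 1 of 12 at 18.1 ng E2/l (2.73% of all genes, 1.47% higher), *mat2aa*, which was higher. DESeq2's Wald test and edgeR's exact test also called no member gene at these concentrations. The number of all genes that either test called there is not given here.

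Single fish spread widely at the lower concentrations. In *bhmt* the fish at 1.9 ng E2/l had 7.01, 116 and 25.6 CPM and those at 18.1 ng E2/l had 222, 13.05 and 21.8 CPM, so 2 fish of each group lay below all controls and 1 lay among them. The log2 fold changes of *bhmt* were -1.49 at the lowest and -0.72 at the middle concentration, with standard errors of 0.72 and 0.77. For *mat2aa* the fish at 1.9 ng E2/l had 9.46, 53.1 and 11.4 CPM and those at 18.1 ng E2/l 28.5, 110.1 and 15.8 CPM, with log2 fold changes of 1.16 and 2.14. At 18.1 ng E2/l 2 of the 3 fish were above all controls. The level of *gnmt* stayed among the controls at 445, 631 and 467 CPM in all fish at 1.9 ng E2/l, and at 485, 471 and 329 CPM at 18.1 ng E2/l only the third fish was below them.

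**Figure D3:**
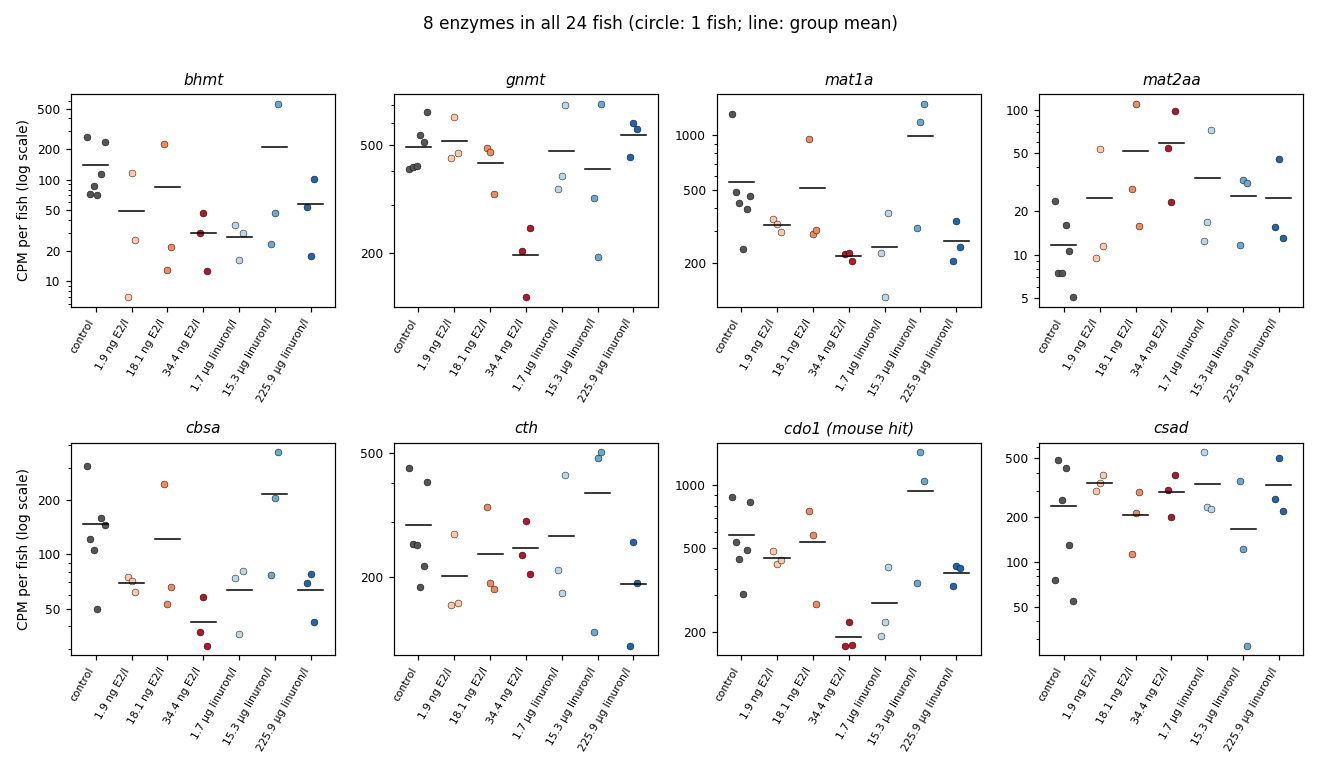
Level of 8 enzymes in all 24 fish in CPM (vertical axes, logarithmic), by group, with control first and then each chemical from the lowest to the highest concentration. Circles are single fish and lines are group means. For *gnmt* the 3 fish at 34.4 ng E2/l lie at 138 to 246 CPM, and of the other 21 fish 1 fish at 15.3 µg linuron/l (194 CPM) lies within that range. For *mat1a* and *cdo1* 2 of the 3 fish at 15.3 µg linuron/l lie far above the first.

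No member was called by edgeR's quasi-likelihood test at any concentration of linuron. In the comparison of 225.9 µg linuron/l with controls, 0.721% of all genes and 0.153% of all transcripts were called, none of them among the 12 genes or 39 transcripts. The lowest edgeR adjusted p was 0.260, for *cbsa*, at 69.2, 77.9 and 42.5 CPM in the exposed fish, against 49.7 to 307 CPM in controls, at a log2 fold change of -1.30 (standard error 0.45). DESeq2's Wald test called this gene, with an adjusted p of 0.0492. How many of all genes that test called is not given here. At an unadjusted p under 0.05 there were 4 of 12 genes, all lower, where 12% of all genes stood (6.69% lower): *bhmt* (-1.33), *mat1a* (-1.14), *cbsa* and *CDO1* (-0.84). The level of *gnmt*, at 450, 598 and 573 CPM, was inside the range of the controls. Summed hepatocyte markers were 61010 to 102500 CPM in this group, against 83100 to 122000 CPM in controls, and their part in these values was not tested.

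At 1.7 µg linuron/l, where no gene of the whole table was called, 7 of the 12 member genes had an unadjusted p under 0.05 (2 higher and 5 lower), where 7.7% of all genes did (3.48% higher and 4.22% lower). The lowest was that of *bhmt*, at 35.4, 16.3 and 30.1 CPM in the exposed fish, against 71.1 to 262 CPM in controls. All 3 exposed fish were below all controls, as for 1.82% of all genes, and the log2 fold change was -2.43 (standard error 0.50, edgeR adjusted p = 0.366). DESeq2's Wald test called *bhmt* (adjusted p = 0.000247) and *CDO1* (adjusted p = 0.0260), and edgeR's exact test called *bhmt* (adjusted p = 0.00304). How many of all genes these tests called is not given here. The levels of *Cdo1* were 190.2, 224 and 407 CPM, against 302 to 876 CPM in controls, so that 2 of the 3 fish were below all controls. Summed hepatocyte markers were 68510 to 89700 CPM in this group, against 83100 to 122000 CPM in controls, a range that overlaps.

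At 15.3 µg linuron/l the 3 fish differed widely among themselves. For *mat1a* they had 310, 1190.3 and 1498 CPM, against 236 to 1308 CPM in controls, and for *Cdo1* 342, 1441 and 1053 CPM, against 302 to 876 CPM in controls. The second and the third fish were above all controls in *Cdo1*, and the first lay near the lowest. Summed hepatocyte markers of this group reached 124100 CPM. The lowest edgeR adjusted p of any member in this comparison was 0.780, and at an unadjusted p under 0.05 there was 1 gene of 12, *mat2aa*, higher, where 6.07% of all genes stood (3.19% higher). DESeq2's Wald test and edgeR's exact test called 0 of the 12 genes here, and the number that they called over all genes is not given.

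The log2 fold change of *mat2aa* was above 0 against the shared controls in every group, at 1.16, 2.14 and 2.17 from the lowest to the highest concentration of E2 and at 1.47, 1.04 and 1.0 in the same order of linuron, and it was called at 34.4 ng E2/l only. Its fish at 1.7 µg linuron/l had 12.4, 16.9 and 72.6 CPM, those at 15.3 µg linuron/l 11.7, 32.7 and 31.3 CPM, and those at 225.9 µg linuron/l 15.6, 45.7 and 13.01 CPM. In each of these groups at least 1 fish was above all controls and at least 1 was among them. For *mat2al* the fish at 15.3 µg linuron/l had 26.1, 7.21 and 17.3 CPM, against 19.98 to 43.7 CPM in controls, so that 2 of the 3 were below all controls (log2 fold change -0.78, standard error 0.39).

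Differences between exposed groups were tested in one model of all 24 fish, for 5 contrasts and 12 genes. Of these 60 differences 2 passed, both of *gnmt*. It was lower at 34.4 ng E2/l than at 1.9 ng E2/l, with a log2 difference of -1.48 (standard error 0.37, edgeR adjusted p = 0.0445), where 1.5% of all genes passed. It was also lower at 34.4 ng E2/l than at 225.9 µg linuron/l, with a log2 difference of -1.52 (standard error 0.37, edgeR adjusted p = 0.0270), where 2.47% of all genes passed. The 3 fish at 34.4 ng E2/l (204, 138 and 246 CPM) lay below the 3 fish of either other group. Against 18.1 ng E2/l the difference was -1.24 (standard error 0.37, edgeR adjusted p = 0.126) and did not pass, where 0.874% of all genes did. When library totals replaced TMM scaling, 0 of the 60 differences passed.

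The remaining calls at 34.4 ng E2/l were not shown to be particular to that concentration or to E2. The difference of *bhmt* from 225.9 µg linuron/l was -1.02 on the log2 scale, with a range of -3.16 to 1.13 within 2 standard errors, and that of *mat2aa* from 18.1 ng E2/l was 0.036 with a range of -1.55 to 1.62. For *Cdo1* the difference from 18.1 ng E2/l was -1.61 (standard error 0.44, edgeR adjusted p = 0.0917). Among linuron groups, *mat1a* at 225.9 µg linuron/l was lower than at 15.3 µg linuron/l by a log2 difference of -1.93 (standard error 0.57, edgeR adjusted p = 0.0839), which did not pass, where 1.19% of all genes did. Between 225.9 and 1.7 µg linuron/l no member passed, where 0.0291% of all genes did.

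The level of *csad* was low in some single fish in which other members were high. Control 1, with the highest *mat1a* of the controls (1308 CPM), had 75.2 CPM of *csad*, and control 6, with 837 CPM of *Cdo1*, had 54.3 CPM. Among exposed fish such values were found in the third fish at 15.3 µg linuron/l, with 1498 CPM of *mat1a*, 561 CPM of *bhmt* and 27.2 CPM of *csad*, and in the first fish at 18.1 ng E2/l, with 953 CPM of *mat1a*, 222 CPM of *bhmt* and 114 CPM of *csad*. At the other end, the first fish at 1.7 µg linuron/l had 226 CPM of *mat1a* and 551 CPM of *csad*. This is a description of fish chosen after their values were seen, and it was not tested.

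**Figure D4:**
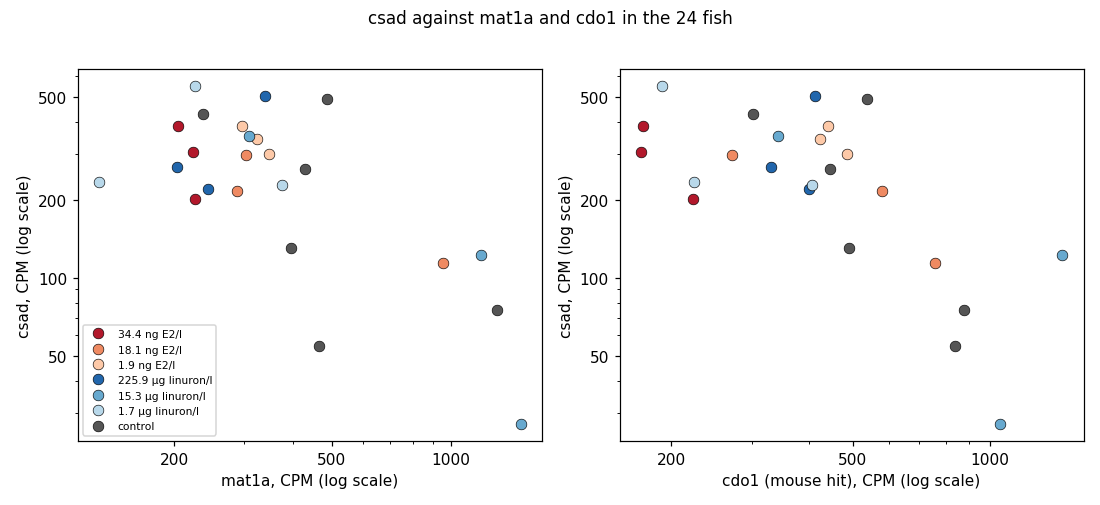
Level of *csad* (vertical axes) against that of *mat1a* (left) and of *cdo1* by its mouse hit (right) in CPM, on logarithmic axes. Each circle is 1 of the 24 fish, coloured by group, and the points share the scaling of their library. The fish with the highest *mat1a*, the third at 15.3 µg linuron/l (1498 CPM), has the lowest *csad* (27.2 CPM).

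A wider list of 34 genes of neighbouring pathways was also examined. At 34.4 ng E2/l, 1 of them fell and 0 rose, where 3.45% of all genes were called (1.95% higher and 1.49% lower). The median log2 fold change of the list was 0.023. The gene that fell was *dmgdh*, dimethylglycine dehydrogenase, which oxidises the dimethylglycine left by the betaine reaction, at 20.1, 24.2 and 27.9 CPM in exposed fish, against 36.3, 37.6, 44.7, 43.4, 48.5 and 59.7 CPM in controls. Every exposed fish was below every control, and the log2 fold change was -1.03 (standard error 0.21, edgeR adjusted p = 0.0195). The call of *dmgdh* was lost without any single exposed fish, where the adjusted p was 0.0659 to 0.160, and with library totals in place of TMM scaling (log2 fold change -0.75, adjusted p = 0.0696).

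At 225.9 µg linuron/l, 2 of the 34 genes of the list rose and 1 fell, where 0.721% of all genes were called (0.539% higher and 0.183% lower). Glutamate-cysteine ligase, catalytic subunit (*gclc*), the first enzyme of glutathione synthesis from cysteine, had 80.1, 86.5 and 53.6 CPM in exposed fish, against 19.9 to 31.7 CPM in controls, a log2 fold change of 1.46 (standard error 0.21, edgeR adjusted p = 0.00683). Listed under sulfide and thiosulfate oxidation, *ethe1* (ethylmalonic encephalopathy 1) had 36.5, 54.7 and 22.3 CPM, against 2.85 to 10.2 CPM in controls. The log2 fold change of *ethe1* was 2.26 (standard error 0.35, edgeR adjusted p = 0.0106). In both genes all exposed fish were above all controls, and both calls were lost without exposed fish 1 (adjusted p = 0.0693 for *gclc* and 0.0706 for *ethe1*). The gene that fell was *aldh7a1*, an aldehyde dehydrogenase that oxidises betaine aldehyde in mammals, at 88.2, 113 and 102 CPM, against 137 to 283 CPM in controls. Its log2 fold change was -1.24 (standard error 0.25, edgeR adjusted p = 0.0419), and it was called in 7 of 17 alternative fits, with adjusted p-values up to 0.343. It was lost without any single exposed fish and without control 2, 3, 5 or 6. In the other 4 comparisons no gene of the list was called. Uncalled values of these genes also lay outside the controls. All fish at 34.4 ng E2/l (17.3, 12.1 and 20.1 CPM) and at 1.7 µg linuron/l (18.8, 10.7 and 11.5 CPM) were above them in *ethe1*. On the scale of each comparison, 6.44% and 1.72% of all genes had all exposed fish above all controls. All fish at 1.7 µg linuron/l were below them in *aldh7a1* (116, 69.9 and 130 CPM), and all at 15.3 µg linuron/l in *dmgdh* (30.9, 15.1 and 24.6 CPM). Such a position below all controls was found for 1.82% and 1.39% of all genes. These genes had been chosen for a call in another group. In no other uncalled group did all fish lie on one side of the controls. S-adenosylhomocysteine hydrolase and the genes annotated as its like 1 and like 2 forms, added after the annotations were seen, gave no call in any comparison. Their log2 fold changes at 34.4 ng E2/l were -0.70 for the hydrolase, -0.80 for like 1 and 0.11 for like 2.

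**Figure D5:**
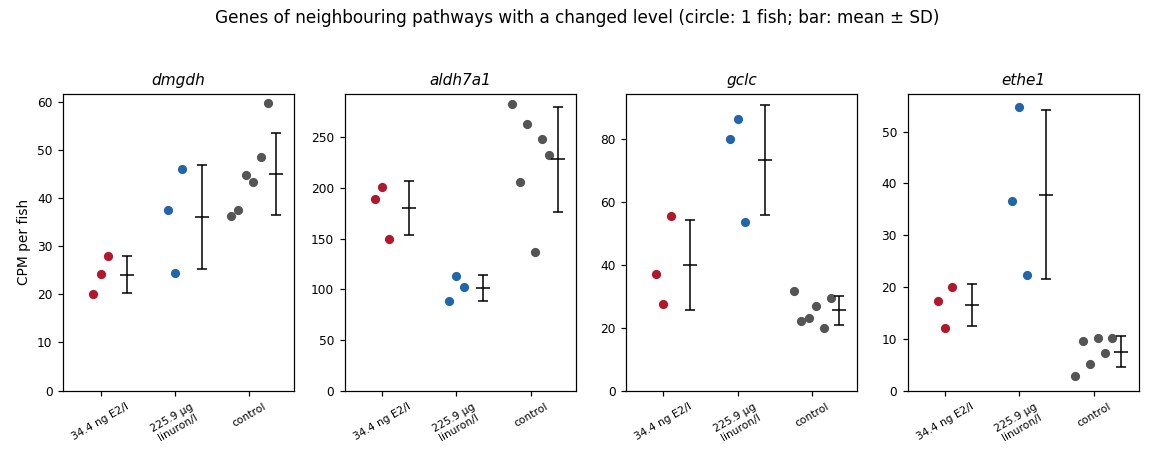
Level in CPM (vertical axes, from 0) of the 4 genes of the wider list that were called, in fish at 34.4 ng E2/l (red), fish at 225.9 µg linuron/l (blue) and control fish (grey). Circles are single fish, and bars give the mean and SD. The 3 fish at 34.4 ng E2/l stand at 20.1 to 27.9 CPM of *dmgdh*, against 36.3 to 59.7 CPM in controls, and the 3 fish at 225.9 µg linuron/l at 53.6 to 86.5 CPM of *gclc*, against 19.9 to 31.7 CPM in controls.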

How the data were processed

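Libraries of liver RNA from single fish were made with the Illumina TruSeq kit, which in its standard form keeps no strand information, so antisense reads cannot be told apart. The authors assembled the reads de novo with Trinity, mapped them back with Bowtie2 2.1.0 allowing 1 best hit per read, and counted reads per contig with SAMtools 0.1.18. The deposited values are raw read counts per contig, in 6 tables of 1 exposed group and the same 6 controls, whose counts were identical in all tables. Columns of the authors' own edgeR comparisons (log fold change, log CPM, p-value, FDR and direction) were not used.

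For every comparison, 3 exposed and 6 control libraries entered edgeR 4.0.16 (R 4.3.3). Transcripts or genes with a count of 1 or more in 3 or more fish were kept, libraries were scaled by TMM, and p-values of the quasi-likelihood test were adjusted by Benjamini and Hochberg over the whole table (threshold 0.05). All 39 member transcripts were kept where listed, and 1 contig of *mat2aa* was not listed in the table of 1.9 ng E2/l. Genes are sums of contigs sharing the Ensembl gene of their first hit, with library sizes from whole tables. Differences between exposed groups came from a model of 7 groups on the 50282 transcripts listed in all 6 tables, and CPM used the TMM scaling of these. A standard error is the log2 fold change before edgeR's shrinkage, without its sign, over the square root of its F statistic. The log2 fold changes given are those after shrinkage. Fits were tried on simulated data with larger fold changes than those of the called members and a single spread setting for all genes. That trial therefore does not bear on the calls given here. As alternatives, DESeq2 1.42.0, the exact test of edgeR, other scalings and filters, a replicate block and the omission of each fish were run. Figures were drawn with matplotlib 3.10.9.

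The members and lists were chosen with earlier results of these data known. Every member gene is named, and of the wider list those with an adjusted p under 0.05 in at least 1 comparison. One item of that list is not reported here and is left out of its counts. Neither contig sequences nor a genome entered the work, so sequences and positions are not given.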

Additional observations from a re-analysis of the deposited data

Results flagged for a closer look

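Among the 6 control fish, control 1 stood apart in *mat1a*, at 1308 CPM, while the other controls lay between 236 and 487 CPM. Such a flag appears by chance in about 1 of 20 groups, and 12 genes were examined. The same fish was also the highest control for *bhmt* (262 CPM), *cbsa* (307 CPM), *cbsb* (178 CPM), *cth* (448 CPM), *Cdo1* (876 CPM), *CDO1* (45.5 CPM) and *mat2aa* (23.5 CPM). It was the lowest control for *gnmt* (408 CPM) and *mat2al* (19.98 CPM).

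The change of *gnmt* differed between exposed groups. Its log2 difference was -1.48 for 34.4 ng E2/l minus 1.9 ng E2/l (edgeR adjusted p = 0.0445, range within 2 standard errors -2.23 to -0.74) and -1.52 for 34.4 ng E2/l minus 225.9 µg linuron/l (edgeR adjusted p = 0.0270, range -2.27 to -0.78). All 3 fish at 34.4 ng E2/l were lower than all 3 fish at 1.9 ng E2/l and all 3 at 225.9 µg linuron/l.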

How the results depend on the processing

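At 34.4 ng E2/l the 6 called genes kept their direction in all 17 alternatives, and were called in 16 (*gnmt*), 14 (*CDO1*), 14 (*Cdo1*), 11 (*bhmt*), 11 (*mat2aa*) and 9 (*cbsa*) of them. With 1 fish left out, member genes called ranged from 0 to 7 and member transcripts from 0 to 13, against 6 and 12 reported, and a model of 7 groups called 3 genes and 4 transcripts. The cause was not tested, and whole-table counts with 1 fish left out are not given here. Over the whole table, more genes were called by DESeq2 (889), by edgeR's exact test (567) and with library totals (716), against 381. More transcripts were called by DESeq2 (2844) and the exact test (2109), and fewer by the model of 7 groups (723), against 1338. Library totals moved the median log2 fold change of all genes at 34.4 ng E2/l by 0.28. They left 0 differences between exposed groups, against 2.

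At 225.9 µg linuron/l DESeq2 called 1 member gene. At 1.7 µg linuron/l DESeq2 called 2 genes and 4 transcripts, and the exact test 1 gene and 2 transcripts, where 0 were called by the quasi-likelihood test. The shares of all genes and transcripts called by DESeq2 and the exact test here are not given. These counts are therefore not read as a result about the members.

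The replicate numbers in the labels did not pair the fish: of 18 same-numbered pairs of exposed and control fish, 3 had a correlation of deviations over 0.1, and 2 exposed fish correlated best with their own number. With the replicate block, 6 genes and 8 transcripts were called at 34.4 ng E2/l, with *mat2aa* (adjusted p = 0.0547) lost and *mat1a* (0.0432) gained, and *dmgdh* (0.105) was also lost.

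Directions of uncalled genes turned as follows, where the fold changes under the replicate block rest on controls 1 to 3 only. Under the replicate block, log2 fold changes were, at 34.4 ng E2/l, 0.45 (*mat2b*), at 18.1 ng E2/l, 0.079 (*mat2al*), 0.025 (*gnmt*) and -0.056 (*cbsb*), and at 1.9 ng E2/l, 0.18 (*mat2al*) and 0.58 (*mat2b*). They were -0.61 (*bhmt*) at 15.3 µg linuron/l and 0.067 (*gnmt*) at 1.7 µg linuron/l. With library totals they were 0.11 (*mat2b*) at 34.4 ng E2/l, -0.034 (*gnmt*) at 1.9 ng E2/l, and 0.069 (*gnmt*) and 0.045 (*cth*) at 1.7 µg linuron/l. With 1 fish left out, they ranged from -0.043 to 0.51 for *csad* at 34.4 ng E2/l. For the middle concentration, 18.1 ng E2/l, the ranges were -0.91 to 0.35 (*mat1a*), -0.29 to 0.14 (*mat2al*), -0.44 to 0.21 (*Cdo1*), -0.52 to 0.12 (*csad*), -1.33 to 0.050 (*cbsa*) and -0.28 to 0.34 (*cbsb*). At 1.9 ng E2/l they were -0.091 to 1.55 (*mat2aa*), -0.22 to 0.21 (*mat2al*), -0.23 to 0.099 (*mat2b*), -0.11 to 0.17 (*gnmt*) and -0.28 to 0.023 (*cbsb*). At 225.9 µg linuron/l they were -0.0059 to 0.43 (*mat2b*) and -0.013 to 0.73 (*csad*). At 15.3 µg linuron/l they were -2.08 to 1.08 (*bhmt*), -0.18 to 0.88 (*cbsa*), -0.99 to 0.054 (*gnmt*) and -0.044 to 0.67 (*cth*), and at 1.7 µg linuron/l -0.085 to 0.78 (*csad*), -0.48 to 0.088 (*gnmt*) and -0.64 to 0.035 (*cth*).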
